A study of Mus musculus with 30 samples.

Results

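The OAS family is described here through 8 genes chosen by name, Oas1a, Oas1b, Oas1c, Oas1g, Oas2, Oas3, Oasl1 and Oasl2, out of 31854 genes listed for CALM/AF10 leukemia cells and 34406 listed for normal progenitors. The members and the gene lists used below were chosen with earlier results of these data known. Counts of them are therefore descriptions and not independent evidence. RNA sequencing covered 30 mouse samples of strain C57BL/6 in 10 groups of 3. The time course held AML cells with the CALM/AF10 fusion and normal bone marrow granulocyte-macrophage progenitors (GMP), each 6 h and 10 h after RG3039, an inhibitor of the decapping scavenger enzyme Dcps, and at 0 h before it, at 1 µM per the names of the deposited junction tables. The other groups were MLL/AF9 lines 2 and 1 and CALM/AF10 lines 2 and 1, which are AML lines with no treatment time in their labels. Nothing in the labels tells if replicates came from separate cultures, so p-values may measure technical spread only. There were no untreated samples at 6 h or 10 h, so the drug and time in culture cannot be told apart.

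Oligoadenylate synthetases sense double-stranded RNA and answer by joining ATP into short chains of adenylate with an unusual linkage, called 2-5A. These chains act as a second messenger of the antiviral response. The genes are textbook targets of type I interferon, whose receptor signals through a complex that holds Stat2 and Irf9 to a promoter element known as the ISRE. Mouse Oas1a, Oas1g, Oas2, Oas3 and Oasl2 encode active synthetases. Oasl1 makes no 2-5A and is known in mice to restrain the translation of Irf7. Oas1b is the mouse gene of flavivirus resistance, cut short by a stop codon in most laboratory strains, and the annotation lists it as a polymorphic pseudogene.

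The 8 genes lie on chromosome 5 (mm10, GENCODE M21). Oasl2 and Oasl1 are neighbours at chr5:114896936-114912234 and chr5:114923240-114937915, and Oas2 (chr5:120730333-120749853) and Oas3 (chr5:120753098-120777661) stand beside the Oas1 cluster. Promoter windows of 250 bases before to 50 after the start were found for 6 of the 8, and Oas2 and Oas1b had no entry. Of these, 4 are shown because they stand for the patterns described below: Oas3, the pair Oas1a and Oas1g, which share much of their transcript sequence, and Oasl2. The sequences are from RefSeq (GRCm38.p6), read 5′ to 3′ on the gene's strand, and capitals mark ISRE core matches, which are GAAA, any 2 bases and GAAA, searched on both strands.
Oas3 promoter, chr5:120777610-120777909, strand -: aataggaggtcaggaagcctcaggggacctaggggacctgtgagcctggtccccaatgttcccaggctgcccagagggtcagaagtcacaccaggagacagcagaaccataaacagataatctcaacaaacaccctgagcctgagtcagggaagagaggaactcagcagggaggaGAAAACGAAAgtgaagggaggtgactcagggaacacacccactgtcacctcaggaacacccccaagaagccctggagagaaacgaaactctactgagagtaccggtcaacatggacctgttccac
Oas1a promoter, chr5:120907476-120907775, strand -: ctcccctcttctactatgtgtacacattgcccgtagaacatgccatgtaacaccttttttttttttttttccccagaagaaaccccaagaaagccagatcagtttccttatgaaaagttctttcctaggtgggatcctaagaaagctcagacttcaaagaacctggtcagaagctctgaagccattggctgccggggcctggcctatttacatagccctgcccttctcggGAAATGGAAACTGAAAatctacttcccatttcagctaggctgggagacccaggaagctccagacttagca
Oas1g promoter, chr5:120887564-120887863, strand -: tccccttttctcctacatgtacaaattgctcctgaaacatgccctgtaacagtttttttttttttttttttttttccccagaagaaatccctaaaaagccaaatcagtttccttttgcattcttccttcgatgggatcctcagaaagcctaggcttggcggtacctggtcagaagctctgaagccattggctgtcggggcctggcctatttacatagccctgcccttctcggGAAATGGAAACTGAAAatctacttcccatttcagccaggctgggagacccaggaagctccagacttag
Oasl2 promoter, chr5:114896684-114896983, strand +: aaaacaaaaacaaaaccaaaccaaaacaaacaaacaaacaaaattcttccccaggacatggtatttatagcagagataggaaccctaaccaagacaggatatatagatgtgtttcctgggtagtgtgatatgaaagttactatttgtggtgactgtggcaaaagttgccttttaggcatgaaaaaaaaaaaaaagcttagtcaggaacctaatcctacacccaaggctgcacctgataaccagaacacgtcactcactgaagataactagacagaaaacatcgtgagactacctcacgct
The ISRE core was found 1 time in the Oas3 window and 2 times, overlapping, in those of Oas1a, Oas1g and Oas1c. In Oas1a and Oas1g the capitals lie at the start itself, at -20 to -5 and -18 to -3 bases from it. The Oasl1 and Oasl2 windows held none, which says only that these letters are not in the windows. Among 32851 RefSeq promoter windows, 3.44% held an ISRE core. The GAS core, which is TTC, any 3 bases and GAA, was found only in the Oas1a window, at -98 to -90 and apart from its ISRE matches, against 8.3% of all windows. A match is a description of the letters and not a measured site.

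**Figure D1:**
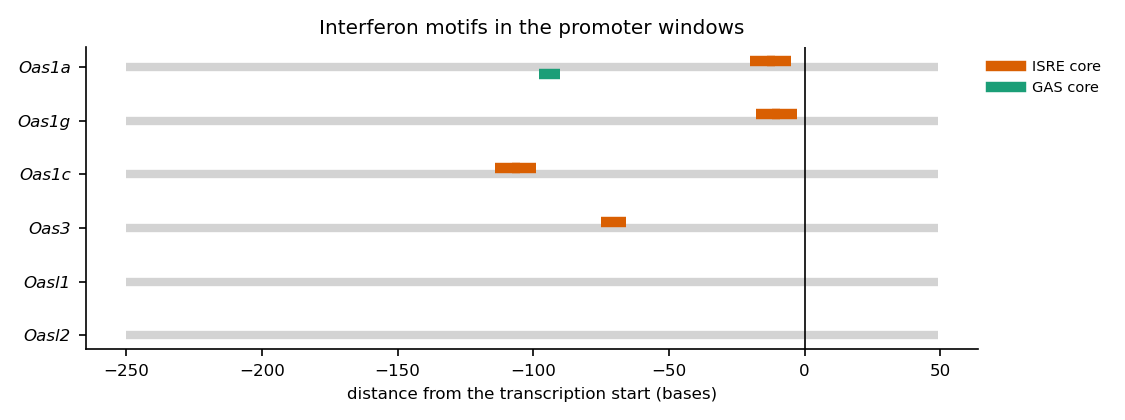
Positions of motif matches in the 6 promoter windows, as distance in bases from the transcription start; grey bars are the windows, orange marks the ISRE core and green the GAS core. Oas3, Oas1c, Oas1g and Oas1a hold the ISRE core and Oasl1 and Oasl2 do not.

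The time-course files give TPM, a length-scaled share of all transcripts, in a separate table for each cell type, so their depth is unknown. The line files give estimated reads per transcript, 8739673 to 25194822 in all per sample, and TPM. These totals differed by line. CALM/AF10 line 2 samples had 16687118 to 21128000 and those of line 1 8739673 to 11819510. MLL/AF9 line 2 samples had 9629415 to 12226344 and those of line 1 20401661 to 25194822. All 8 genes passed the filter on low values in every comparison. Of the distinct 50-base words of Oas1a transcripts, 57.6% also occur in Oas1g, and 45.7% of those of Oas1g are shared, nearly all with Oas1a. Values of this pair are uncertain for that reason. The share is 9.82% for Oas1c and 1.17% for Oas1b, while Oas2, Oas3, Oasl1 and Oasl2 share none. The other Oas1 paralogs, Oas1d, Oas1e, Oas1f and Oas1h, together reached at most 0.801 TPM in CALM/AF10 samples of the time course. In the lines they were higher, and Oas1h alone reached 2.48 TPM in a sample of MLL/AF9 line 2. The CALM/AF10 samples showed Hoxa9 and Meis1, transcription factor genes of this leukemia, at a summed 195.5 to 235 TPM. Markers of GMP summed to 20340 to 21300 TPM in GMP at 0 h.

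In CALM/AF10 cells the OAS genes rose late. At 10 h, 6 of the 8 were higher than at 0 h and none was lower, where 10.5% of 12815 tested genes were higher and 8.64% lower. At 6 h, 1 of the 8 was higher, Oas1g, and none was lower, where 5.44% of all genes were higher and 7.14% lower. The summed level of the 8 genes was 59.5 to 63.0 TPM at 0 h, 64.1 to 72.2 TPM at 6 h and 96.0 to 140.9 TPM at 10 h. The 10 h mean sum was 1.86 times that at 0 h. All tests of the time course are limma on log2(TPM + 1) with Benjamini-Hochberg adjustment over all genes, and log2 changes are given with their standard error. This scale understates the change of low genes. In these bulk samples, fewer cells of a type and less RNA per cell cannot be told apart.

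Oas3, the long synthetase, stood at 7.77, 6.73 and 6.75 TPM at 0 h, at 8.19, 6.51 and 7.39 TPM at 6 h and at 21.6, 14.1 and 15.7 TPM at 10 h. Every 10 h sample lay above all the others, and the 0 h and 6 h samples overlapped. Its log2 change at 10 h against 0 h was 1.14 ± 0.14 (limma adjusted p = 0.000612), and at 6 h it was 0.05 ± 0.14 (adjusted p = 0.886).

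Oasl2, a synthetase with ubiquitin-like domains, had 15.7, 12.8 and 13.2 TPM at 0 h, 17.8, 11.7 and 13.8 TPM at 6 h and 41.6, 26.3 and 30.2 TPM at 10 h. Only the 10 h samples stood clear, and Oasl2 was the most abundant member on average at 0 h, 6 h and 10 h. Its log2 change at 10 h against 0 h was 1.16 ± 0.18 (limma adjusted p = 0.00195). Oasl1 had 1.63, 1.67 and 1.93 TPM at 0 h, 1.84, 1.51 and 1.60 TPM at 6 h and 7.93, 3.13 and 4.08 TPM at 10 h. It was the lowest member before treatment, and its 10 h samples again lay above every earlier one. Its log2 change was 1.06 ± 0.23 (limma adjusted p = 0.0120).

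Oas1g was the member that passed the test at 6 h. It had 10.8, 10.1 and 9.67 TPM at 0 h, 13.4, 14.999 and 14.4 TPM at 6 h and 24.4, 18.1 and 18.2 TPM at 10 h, with no overlap between any of the 3 times. The log2 change against 0 h was 0.45 ± 0.11 at 6 h (limma adjusted p = 0.0250) and 0.91 ± 0.11 at 10 h (adjusted p = 0.000466). The 6 h call was lost without 0 h sample b or c, without 6 h sample b or c and without the filter on low values, with adjusted p up to 0.0836. Its close copy Oas1a had 12.1, 12.3 and 12.5 TPM at 0 h, 13.7, 12.8 and 14.1 TPM at 6 h and 21.0, 16.0 and 18.4 TPM at 10 h. Its 6 h samples lay just above those at 0 h without passing the test (log2 0.13 ± 0.09, limma adjusted p = 0.416), and at 10 h it was higher (0.54 ± 0.09, adjusted p = 0.00254).

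Oas2 was higher at 10 h, with 11.8, 8.18 and 8.87 TPM, against 6.73, 6.26 and 6.98 TPM at 0 h. Its change of 0.46 ± 0.12 passed (limma adjusted p = 0.0268), but not without any single one of the 0 h samples, 10 h sample a or the filter, with adjusted p up to 0.0821. The pair that did not pass were Oas1b, at 4.15 ± 0.536 TPM at 10 h and 3.52 ± 0.514 TPM at 0 h, and Oas1c, at 6.93 ± 0.855 TPM and 6.18 ± 1.05 TPM (SD, n = 3 each). Both overlapped between every pair of times.

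The 10 h samples were not alike. Sample a was the highest of the 3 for all 8 members, and its sum was 140.9 TPM, while sample b was the lowest for 7. The type I interferon target list described below also ran highest at 10 h, with sums of 2008 to 2658 TPM, against 1654 to 1726 TPM at 0 h. Without sample a, the log2 changes against 0 h of Oas3, Oasl2 and Oasl1 were 0.97, 0.97 and 0.74 (limma adjusted p = 0.000720, 0.00459 and 0.00614). Those of Oas1g and Oas1a were 0.77 and 0.45, also past the threshold (limma adjusted p = 0.000344 and 0.00555), and Oas2 was at 0.32 (adjusted p = 0.0504).

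**Figure D2:**
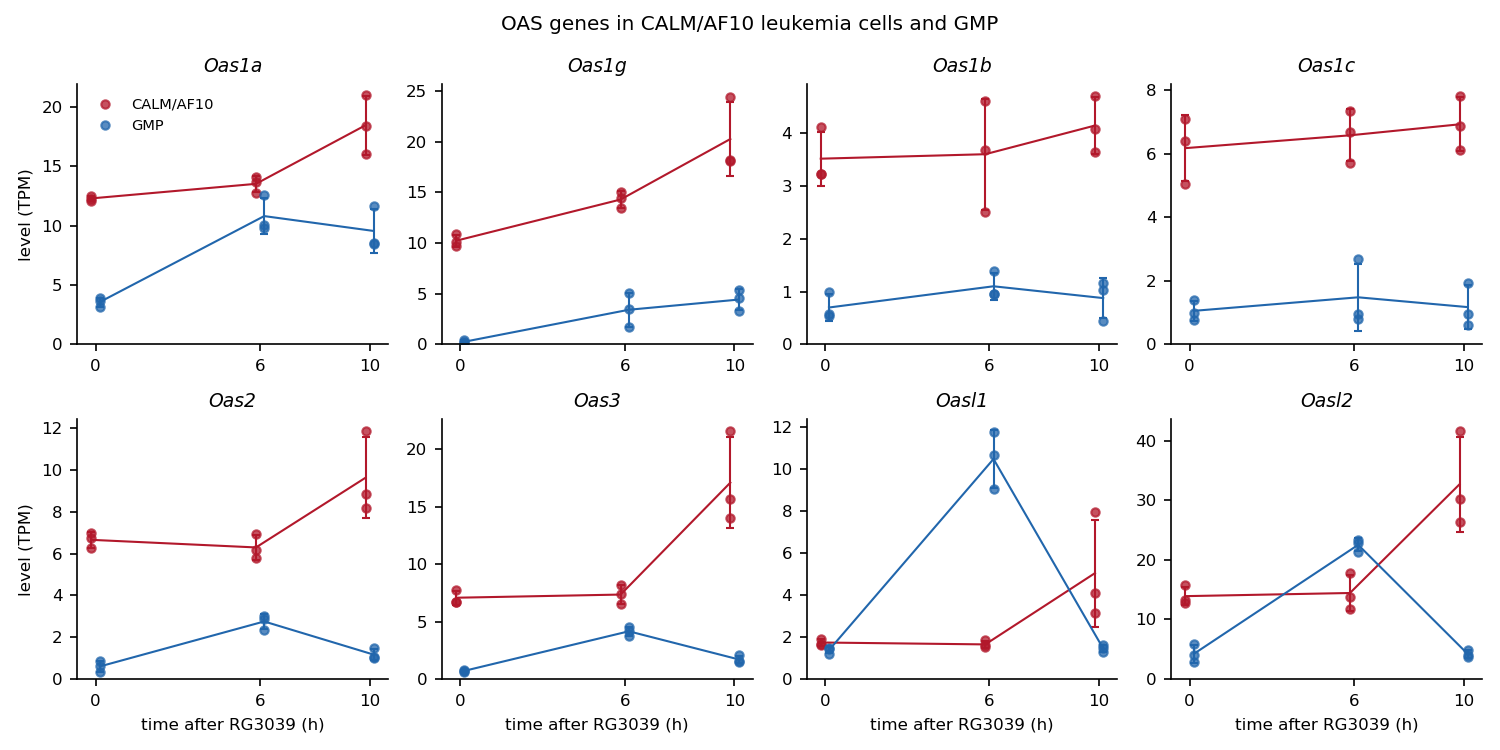
Level in TPM of the 8 OAS genes at 0, 6 and 10 h after RG3039, in CALM/AF10 cells (red) and GMP (blue); points are samples, lines join group means and bars are SD (n = 3), and each panel has its own axis from 0. In CALM/AF10 cells Oas3, Oasl1 and Oasl2 stand clear only at 10 h, and in GMP the same genes peak at 6 h.

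Against 6 h, 4 of the 8 members were higher at 10 h in CALM/AF10 cells and none was lower, where 2.18% of all genes were higher and 0.749% lower. The 4 were Oas3, Oasl2, Oasl1 and Oas1a. Oas3 gave 1.10 ± 0.14 (limma adjusted p = 0.00795) and kept its call under each alternative run, with adjusted p up to 0.0396. Oasl2 gave 1.12 ± 0.18 (limma adjusted p = 0.0156), lost without 6 h sample b or c or without the filter, with adjusted p up to 0.0678. Oasl1 gave 1.11 ± 0.23 and Oas1a 0.42 ± 0.09 (limma adjusted p = 0.0404 for both). Both calls were lost without any single 6 h sample or 10 h sample c, and that of Oas1a also without 10 h sample a, with adjusted p up to 0.123 and 0.119. Both were lost too without the filter, after median centring or quantile normalization, and in a fit without the 0 h samples. Oas1g and Oas2 were near the threshold (limma adjusted p = 0.0552 and 0.0521).

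In GMP most of the OAS genes rose early, and some of these then fell. At 6 h, 6 of the 8 members were higher than at 0 h and none was lower, where 24.1% of 14246 tested genes were higher and 19.9% lower. At 10 h, 3 were still higher than at 0 h and none was lower, where 23.7% of all genes were higher and 21.5% lower. Between 6 h and 10 h, 4 fell and none rose, where 3.87% of all genes fell and 3.21% rose. In GMP at 0 h, 4 of the 8, Oas1b, Oas1g, Oas2 and Oas3, had no sample at 1 TPM and so passed the filter only through treated samples, and the counts are descriptions for that reason. Without the filter Oas1g, Oas2 and Oas3 still passed at 6 h (limma adjusted p = 0.00331, 0.00108 and 9.42e-05). No member was below its 0 h level by the test at either time. The summed level of the members was 10.2 to 14.5 TPM at 0 h, 54.0 to 58.7 TPM at 6 h and 21.0 to 29.3 TPM at 10 h. The 3 comparisons share samples, so they are not independent.

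Oasl1 gave the largest change of the 8 at 6 h on the log2(TPM + 1) scale, while by the ratio of mean TPM Oas1g came first at 13.85, against 7.60 for Oasl1. It had 1.43, 1.21 and 1.497 TPM at 0 h, 10.7, 11.7 and 9.04 TPM at 6 h and 1.48, 1.60 and 1.28 TPM at 10 h. The 6 h samples stood far above the rest and the 10 h samples overlapped those at 0 h. Its log2 changes were 2.27 ± 0.13 at 6 h against 0 h and -2.22 ± 0.13 at 10 h against 6 h (limma adjusted p = 1.67e-06 and 7.06e-05).

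Oasl2 followed the same course, with 2.796, 3.97 and 5.85 TPM at 0 h, 22.9, 21.3 and 23.4 TPM at 6 h and 3.62, 4.87 and 4.05 TPM at 10 h. Its 10 h samples lay within the range at 0 h. Its log2 changes were 2.22 ± 0.19 at 6 h against 0 h and -2.19 ± 0.19 at 10 h against 6 h (limma adjusted p = 2.37e-05 and 0.000731).

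Oas3 and Oas2 rose at 6 h and were lower at 10 h than at 6 h. Oas3 had 0.742, 0.794 and 0.610 TPM at 0 h, 4.18, 4.52 and 3.78 TPM at 6 h and 1.48, 2.05 and 1.62 TPM at 10 h, with no overlap between the times. Its log2 change was 1.59 ± 0.13 at 6 h and 0.66 ± 0.13 at 10 h against 0 h (limma adjusted p = 1.83e-05 and 0.00297), and -0.93 ± 0.13 at 10 h against 6 h (adjusted p = 0.00510). Oas2 had 0.624, 0.855 and 0.326 TPM at 0 h, 3.02, 2.89 and 2.36 TPM at 6 h and 1.04, 1.47 and 0.989 TPM at 10 h. It rose at 6 h by 1.24 ± 0.17 (limma adjusted p = 0.000356), and its value of 0.44 ± 0.17 at 10 h against 0 h missed the threshold (adjusted p = 0.0587). Its value at 10 h against 6 h, -0.80 ± 0.17, passed (limma adjusted p = 0.0260), but not without 6 h sample a or b, 10 h sample a or c, the filter, or with a pseudocount of 0.1, with adjusted p up to 0.0956.

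Oas1a and Oas1g stayed up at 10 h. Oas1a had 3.12, 3.86 and 3.68 TPM at 0 h, 12.6, 9.77 and 10.1 TPM at 6 h and 8.50, 11.7 and 8.49 TPM at 10 h, and the 6 h and 10 h samples overlapped. Its log2 change against 0 h was 1.37 ± 0.14 at 6 h and 1.202 ± 0.14 at 10 h (limma adjusted p = 7.69e-05 and 0.000149). Oas1g had 0.234, 0.406 and 0.0969 TPM at 0 h, 3.51, 5.01 and 1.69 TPM at 6 h and 3.28, 4.57 and 5.37 TPM at 10 h. It had been the lowest member at 0 h and was at 1.75 ± 0.28 and 2.11 ± 0.28 on the log2 scale at 6 h and 10 h (limma adjusted p = 0.000908 and 0.000281). At 10 h Oas1a was the most abundant member at 9.55 ± 1.83 TPM, a place that Oasl2 held at 6 h with 22.5 ± 1.11 TPM (SD, n = 3 each). Oas1b, at 0.697 to 1.10 TPM on average, and Oas1c, at 1.05 to 1.48 TPM, overlapped between every pair of times and did not pass.

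Other programs moved in GMP over the same hours. Of 8 GMP markers, 7 fell at 6 h, where 19.9% of all genes fell and 24.1% rose. The sum of the GMP markers was 12370 to 12970 TPM at 6 h, against 20340 to 21300 TPM at 0 h. Of 7 tested monocyte and macrophage markers, 5 rose and 1 fell, with sums over all 9 of 129 to 135.4 TPM at 6 h and 84.4 to 97.4 TPM at 0 h. The part of these in the OAS result was not tested. The sum of plasmacytoid dendritic cell markers, most of it Tcf4, was 47.2 to 50.8 TPM at 6 h and 49.1 to 57.0 TPM at 0 h.

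**Figure D3:**
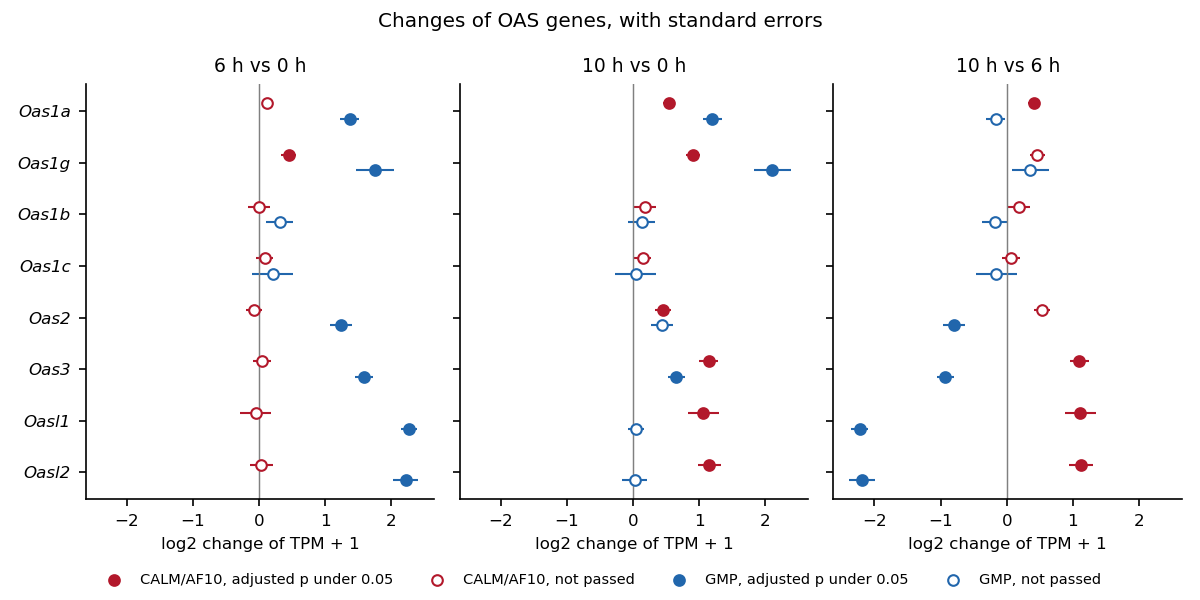
Log2 change of TPM + 1 with its standard error for the 8 OAS genes, at 6 h against 0 h, 10 h against 0 h and 10 h against 6 h; red is CALM/AF10 cells, blue is GMP, and filled points passed an adjusted p under 0.05 in limma. Between 6 h and 10 h the filled red points are to the right of 0 and the filled blue points to the left.

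The difference between the cell types was tested by subtracting the GMP change from the CALM/AF10 change. At 6 h, 6 of the 8 members changed less in CALM/AF10 cells and none changed more, where 22.2% of 14044 shared genes were lower in this contrast and 16.2% higher. The differences ran from -1.24 ± 0.17 for Oas1a to -2.31 ± 0.28 for Oasl1, with Oas1g, Oas2, Oas3 and Oasl2 between them (limma adjusted p = 9.01e-06 to 0.00380). At 10 h the members split, with 2 higher and 2 lower, where 18.5% of all genes were higher and 20.2% lower. Oasl1 and Oasl2 had risen more in CALM/AF10 cells, by 1.02 ± 0.28 and 1.13 ± 0.28, and Oas1a and Oas1g less, with differences of -0.66 ± 0.17 and -1.20 ± 0.31 (limma adjusted p = 0.00476 to 0.00884). Oas3 was at 0.48 ± 0.19 (limma adjusted p = 0.0539). Its mean went from 7.09 TPM at 0 h to 17.1 TPM at 10 h in CALM/AF10 cells and from 0.715 to 1.72 TPM in GMP. Without the pseudocount these ratios are nearly equal. The pseudocount acts more on GMP, where several members were under 1 TPM at 0 h. Levels in the 2 tables were normalized separately and were not tested against each other.

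Of 4 other genes tied to 2-5A, 1 of the 3 tested in GMP rose and 1 of the 4 tested in CALM/AF10 cells fell, which is read against the 24.1% of all genes higher in GMP at 6 h and the 8.64% lower in CALM/AF10 cells at 10 h. Enpp1 was not tested in GMP. Abce1, a ribosome recycling factor, averaged 54.3 ± 2.49 TPM at 6 h in GMP, against 33.6 ± 1.65 TPM at 0 h (SD, n = 3 each). It rose there by 0.68 ± 0.06 at 6 h and 0.76 ± 0.06 at 10 h (limma adjusted p = 2.44e-05 and 1.04e-05). In CALM/AF10 cells its log2 change was -0.07 ± 0.07 at 6 h and 0.01 ± 0.07 at 10 h (limma adjusted p = 0.557 and 0.954). Pde12, a phosphodiesterase that degrades 2-5A, was at 0.04 ± 0.07 in CALM/AF10 cells and 0.08 ± 0.09 in GMP at 10 h, and passed in neither. Akap7, whose product also cleaves 2-5A, passed in no time-course comparison. Enpp1, an ectonucleotidase, was at 1.63 ± 0.189 TPM in CALM/AF10 cells at 10 h and 2.48 ± 0.457 TPM at 0 h (log2 -0.40 ± 0.12, limma adjusted p = 0.0452), a call lost without any single sample of either time.

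Type I interferon targets outside the family also rose, at 10 h in CALM/AF10 cells and at 6 h in GMP. Of 37 such genes tested in CALM/AF10 cells at 10 h against 0 h, 19 were higher and none was lower, with a median log2 change of 0.42 beside 0.73 for the OAS genes and 0.01 for all genes. Of all tested genes, 10.5% were higher and 8.64% lower there. Rsad2, an antiviral radical enzyme, rose by 1.39 ± 0.24, Cmpk2 by 1.25 ± 0.15, and Ifit3 and Ifit1, which bind foreign RNA ends, by 1.09 ± 0.29 and 1.07 ± 0.30 (limma adjusted p = 0.000524 to 0.0354). At 6 h, 2 of the 37 were higher, Cmpk2 by 0.68 ± 0.15 and Samd9l by 0.43 ± 0.10 (limma adjusted p = 0.0178 and 0.0227). That share is near the 5.44% of all genes that were higher, so the count is not a result about this list. In GMP at 6 h, 22 of 36 were higher and 1 was lower, where 24.1% of all genes were higher and 19.9% lower. Ifitm3, a block to virus entry, averaged 1311 ± 45.8 TPM at 6 h, against 157.6 ± 9.24 TPM at 0 h (SD, n = 3 each; log2 3.05 ± 0.06, limma adjusted p = 6.58e-09), and Isg15, a ubiquitin-like modifier, rose by 1.14 ± 0.20 (adjusted p = 0.00140). Between 6 h and 10 h in GMP, 14 fell and 1 rose, where 3.87% of all genes fell and 3.21% rose. Isg15 was at 8.22 ± 0.634 TPM at 10 h and 24.8 ± 0.537 TPM at 6 h (log2 -1.48 ± 0.20, limma adjusted p = 0.00370). Ifitm3 did not fall with those 14 and was at 1706 ± 76.6 TPM at 10 h.

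**Figure D4:**
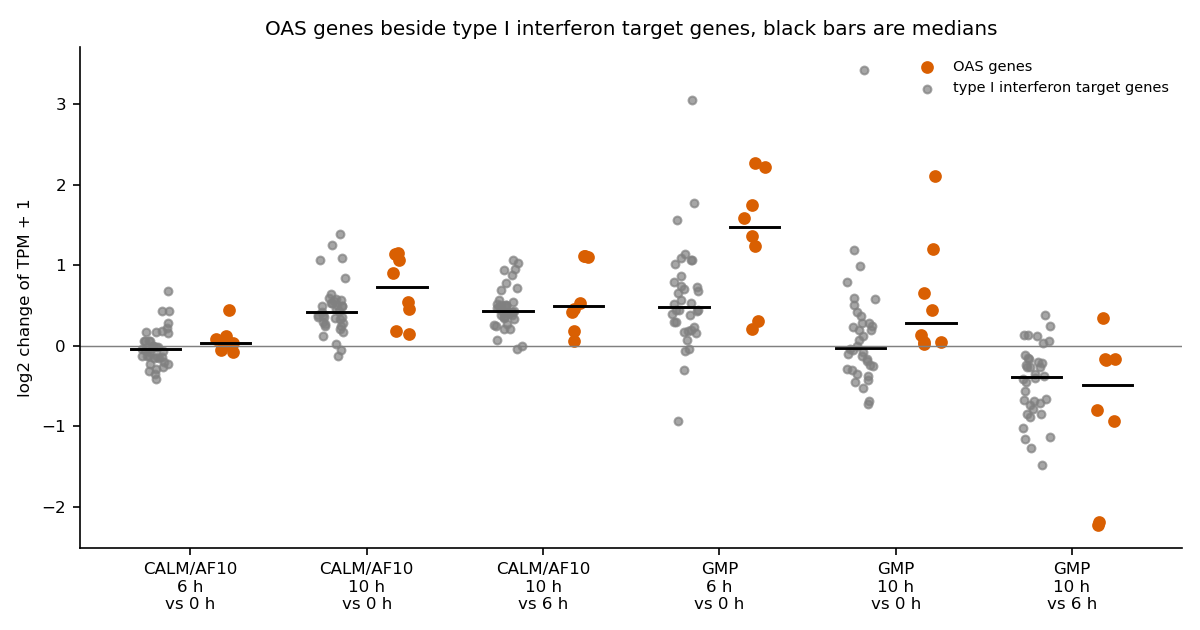
Log2 change of TPM + 1 for the 8 OAS genes (orange) and the tested type I interferon target genes (grey) in 6 time-course comparisons, with black bars at the medians. In GMP at 6 h the OAS median of 1.48 lies above the target median of 0.48, and at 10 h against 6 h the medians are -0.49 and -0.39.

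Of the receptor and signalling genes of the pathway, Usp18 was among those that rose in both cell types. At 10 h in CALM/AF10 cells, 3 of 14 receptor and signalling genes rose and none fell, where 10.5% of all genes rose and 8.64% fell. The 3 were Usp18, a brake on the receptor, by 0.90 ± 0.19, Irf9 by 0.60 ± 0.08 and Stat2 by 0.35 ± 0.10 (limma adjusted p = 0.00121 to 0.0383). Irf9 was already higher at 6 h, by 0.33 ± 0.08 (limma adjusted p = 0.0326). In GMP at 6 h, 4 of 14 rose and 3 fell, shares near the 24.1% and 19.9% of all genes there, so the count is not a result about this list. Socs1 and Socs3, inhibitors of cytokine receptors, rose by 3.38 ± 0.08 and 2.84 ± 0.09, Usp18 rose by 1.22 ± 0.14, and Ifngr1, a receptor chain of interferon gamma, fell, to 56.5 ± 3.36 TPM at 6 h, against 131.1 ± 6.74 TPM at 0 h (SD, n = 3 each; limma adjusted p = 1.30e-08 to 0.000125). Usp18 then fell in GMP, to 1.52 ± 0.151 TPM at 10 h, against 3.13 ± 0.437 TPM at 6 h (SD, n = 3 each; log2 -0.71 ± 0.14, limma adjusted p = 0.0201).

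Irf7, the factor that amplifies interferon production, rose in both. In CALM/AF10 cells it averaged 22.9 ± 11.2 TPM at 10 h and 9.67 ± 1.62 TPM at 0 h (log2 1.08 ± 0.27, limma adjusted p = 0.0210). In GMP it averaged 19.1 ± 2.16 TPM at 6 h and 2.63 ± 0.333 TPM at 0 h (SD, n = 3 each; 2.47 ± 0.13, limma adjusted p = 1.12e-06), and it was lower at 10 h than at 6 h, with a log2 change of -1.03 ± 0.13 (adjusted p = 0.00280). Irf8 and Irf1 fell in GMP at 6 h, by 1.87 and 1.76 on the log2 scale (limma adjusted p = 2.74e-07 and 1.62e-05). Among the RNA sensors, Dhx58 rose by 1.01 ± 0.10 in CALM/AF10 cells at 10 h and by 1.201 ± 0.17 in GMP at 6 h (limma adjusted p = 0.000191 and 0.000377). Zbp1, a sensor of Z-form nucleic acid, rose by 0.71 ± 0.11 and 2.20 ± 0.20 in the same comparisons (limma adjusted p = 0.00240 and 3.47e-05). At 10 h in CALM/AF10 cells, 5 of 13 sensors rose and none fell, where 10.5% of all genes rose and 8.64% fell. In GMP at 6 h, 5 of 12 rose and none fell, where 24.1% of all genes rose and 19.9% fell.

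Targets of interferon gamma were read against the shares of all genes, 10.5% higher and 8.64% lower at 10 h in CALM/AF10 cells and 24.1% higher and 19.9% lower at 6 h in GMP. At 10 h in CALM/AF10 cells, 6 of 18 were higher and 1 lower, among them Gbp5 and Gbp7, guanylate-binding proteins, by 0.79 ± 0.14 and 0.47 ± 0.06 (limma adjusted p = 0.00434 and 0.000517). In GMP at 6 h, 8 of 17 were higher and 4 lower, the second a share near that of all genes, with Cxcl10, a chemokine, at 34.5 ± 5.64 TPM, against 169.3 ± 6.06 TPM at 0 h (SD, n = 3 each; log2 -2.27 ± 0.20, limma adjusted p = 2.57e-05). It was at 2.18 ± 0.901 TPM at 10 h.

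Interferon genes themselves were hardly seen. None of 21 ligand genes passed the filter in either table. Their sum was at most 1.315 TPM in any CALM/AF10 sample and at most 3.28 TPM in any GMP sample, and Ifnk was the highest on average in each group. Ifnb1 was listed at 0 in all CALM/AF10 samples at 0 h and in all GMP samples at 6 h and 10 h.

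The genes whose pattern was most like that of the members were looked for among 6981 with a mean of 5 TPM or more in both tables. Pearson r with the members' mean, over 9 samples in each cell type, was ranked by the smaller of the 2 values. The leading 8 were Irf7, Zbp1, Ifi203, Gbp7, Dck, N4bp1, Znfx1 and Rnf213, with smaller r of 0.95 for Irf7 to 0.91 for Rnf213. Over the 12 line samples their r ranged widely, being 0.84 for Rnf213 and -0.69 for Dck. Within the family, r between Oas3 and Oasl2 was 0.99 in CALM/AF10 samples and 0.88 in GMP, and that between Oas1g and Oasl2 was 0.84 and 0.33. These samples share the 3 times of treatment, so the r values describe the time course and no more.

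No OAS gene had a junction in the authors' deposited tables of splice junctions that differed between RG3039-treated and 0 h samples. Those tables list 486 junctions for CALM/AF10 cells at 6 h, 689 at 10 h, and 291 and 400 for GMP. For Akap7 the authors' deposited table for CALM/AF10 cells at 6 h lists a retained intron at 45% at 6 h and 8% at 0 h, with q = 8.66e-06, and the table for 10 h has no Akap7 row. Of the wider pathway, the authors' deposited tables for CALM/AF10 cells list a Traf3 junction at 63% at 6 h and the same Traf3 coordinates at 59% at 10 h, against 35% at 0 h in both. The authors' deposited table for 10 h lists Ddx60 at 18% at 10 h and 0% at 0 h and Znfx1 at 11% at 10 h and 4% at 0 h. Ptpn6 at both times and Jak1 at 10 h were at 3% or 4% after treatment and 0% at 0 h in the authors' deposited tables. No gene of the pathway lists appears in the GMP tables.

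In the 4 AML lines the OAS genes differed between lines of the same fusion. Tests within a fusion are edgeR quasi-likelihood tests on estimated reads summed per gene, and levels are TPM. CALM/AF10 line 2 was lower than line 1 for 6 of the 8 members and higher for none, where 11.9% of 17033 genes were lower and 20.1% higher. Their summed level was 49.99 to 59.2 TPM in line 2 and 103 to 118 TPM in line 1. MLL/AF9 line 2 was higher than line 1 for 4 members and lower for 1, where 25.9% of all genes were higher and 30.8% lower. The summed level there was 115 to 131 TPM in line 2 and 62.3 to 67.3 TPM in line 1. TPM of genes at large was also higher in MLL/AF9 line 2, with a median log2 difference of 0.42 in limma on TPM. In both fusions the line with the higher sum was the one with fewer estimated reads per sample. The part of depth in these differences was not tested.

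Among the CALM/AF10 samples Oasl2 had 15.7, 20.7 and 18.6 TPM in line 2 and 48.0, 40.1 and 41.6 TPM in line 1. The lines did not overlap, and the log2 difference was -1.20 ± 0.11 (edgeR adjusted p = 1.32e-07). Oas2 had 5.17, 6.27 and 6.16 TPM in line 2 and 12.7, 13.97 and 12.5 TPM in line 1 (-1.18 ± 0.09, edgeR adjusted p = 1.07e-08). Oas1g, at 2.14 ± 0.352 TPM in line 2 and 9.15 ± 3.34 TPM in line 1 (SD, n = 3 each), gave the largest difference of the 8, -2.14 ± 0.21 (edgeR adjusted p = 5.19e-07). Oas1a and Oas3 were also lower, with log2 differences of -0.91 ± 0.14 and -0.65 ± 0.12 (edgeR adjusted p = 5.26e-05 and 0.000383). Oasl1 gave -1.17 ± 0.34 (edgeR adjusted p = 0.0131), lost without line 2 replicate 1 or 2 and in limma on TPM, with adjusted p up to 0.0653. Oas1b at -0.70 ± 0.27 missed the threshold (edgeR adjusted p = 0.0553). Oas1c was at -0.46 ± 0.27 by reads (edgeR adjusted p = 0.198), while its TPM was higher in line 2, at 5.46 ± 1.89 in line 2 and 2.50 ± 0.566 in line 1, and passed in that direction in limma on TPM (0.85 ± 0.27, adjusted p = 0.0436). Its direction therefore depends on whether reads or TPM are tested. The higher TPM lay on the 416-base transcript Oas1c-202, at 4.10 TPM from 23.0 reads on average in line 2 and 0.092 TPM in line 1. The longer Oas1c-201 and Oas1c-203 were lower in line 2, at 0.82 and 0.53 TPM, against 1.60 and 0.81 TPM in line 1. Erythroid markers were lower in line 2 for 6 of 6, where 11.9% of all genes were lower. The marker sums were 103.3 to 114.6 TPM in line 2 and 777.6 to 982.2 TPM in line 1. The part of this in the OAS result was not tested.

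In MLL/AF9 cells Oas2 had 32.7, 30.3 and 32.7 TPM in line 2 and 12.6, 12.9 and 13.4 TPM in line 1, well apart (0.76 ± 0.08, edgeR adjusted p = 2.57e-07). Oas1b had 14.9, 14.4 and 15.5 TPM in line 2 and 7.202, 4.57 and 4.01 TPM in line 1 (1.11 ± 0.26, edgeR adjusted p = 0.00126). Oas1g was at 32.4 ± 2.97 TPM in line 2 and 13.6 ± 0.540 TPM in line 1 (SD, n = 3 each; 0.50 ± 0.18, edgeR adjusted p = 0.0255), a call lost without line 2 replicate 1 or 3 or line 1 replicate 1 or 3, with adjusted p up to 0.0837. Oasl2 was at 16.9 ± 3.36 TPM in line 2 and 8.86 ± 0.844 TPM in line 1 (0.36 ± 0.12, edgeR adjusted p = 0.0136), lost without line 1 replicate 2 (adjusted p = 0.0573). Here the scaling matters, since the median of all genes was 0.08 in edgeR, 0.34 in DESeq2 and 0.42 in limma on TPM. Oas1a was lower at -0.32 ± 0.13 in edgeR (adjusted p = 0.0445) but at 0.18 in limma on TPM (adjusted p = 0.213), which is -0.24 from that median. Its call was also lost in DESeq2, without the filter, with replicate number as a block, and without any single sample except line 2 replicate 3. Measured from the DESeq2 median, the log2 differences were 0.093 for Oasl2, 0.24 for Oas1g, 0.49 for Oas2 and 0.84 for Oas1b. Oas3, Oasl1 and Oas1c did not pass. Where 25.9% of all genes were higher in line 2, stromal markers were higher for 5 of 5 and endothelial ones for 4 of 5. Their sums were 83.5 to 93.8 and 76.1 to 83.5 TPM in line 2 and 3.72 to 4.42 and 41.6 to 44.0 TPM in line 1, and their part in the OAS result was not tested.

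**Figure D5:**
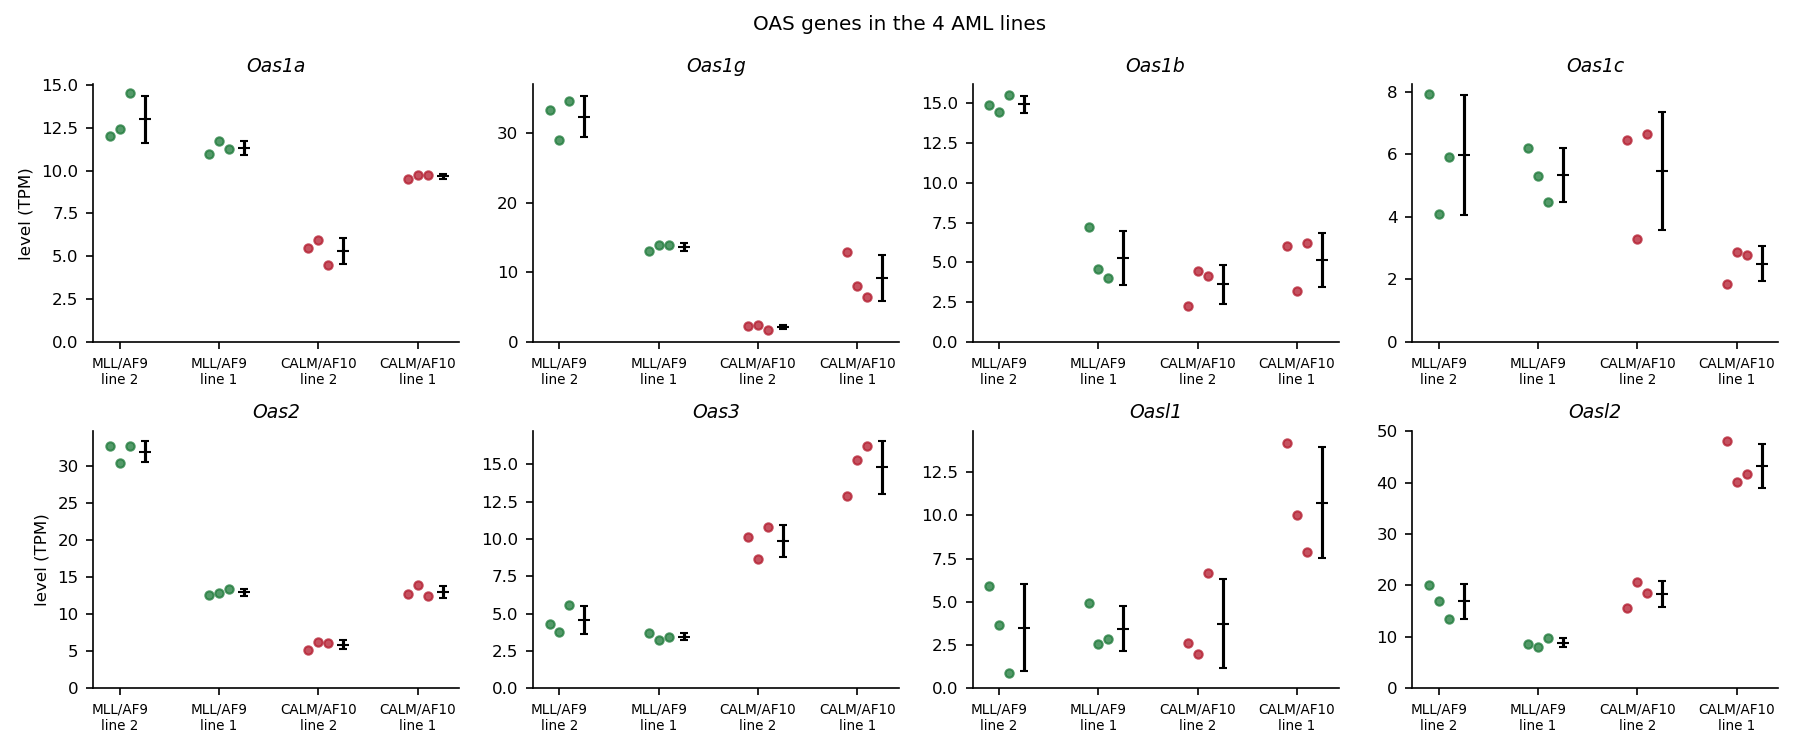
Level in TPM of the 8 OAS genes in MLL/AF9 lines 2 and 1 (green) and CALM/AF10 lines 2 and 1 (red); points are samples, black bars are mean and SD (n = 3), and each panel has its own axis from 0. Oas3 is higher in both CALM/AF10 lines than in both MLL/AF9 lines, while Oas2 and Oas1g are highest in MLL/AF9 line 2.

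Between the fusions only Oas3 passed. It had 4.34, 3.76 and 5.60 TPM in MLL/AF9 line 2, 3.73, 3.25 and 3.44 TPM in MLL/AF9 line 1, 10.1, 8.68 and 10.8 TPM in CALM/AF10 line 2 and 12.9, 15.3 and 16.3 TPM in CALM/AF10 line 1. All MLL/AF9 samples lay below all CALM/AF10 samples. With reads summed per line, so that 2 lines a fusion were the replicates, its log2 difference was -2.24 ± 0.39 (edgeR adjusted p = 0.0225), where 1.79% of 19032 genes were lower and 1.05% higher. It did not pass in limma on TPM (-1.40, adjusted p = 0.128), where the median of all genes was 0.47. Oasl2, at 16.9 and 8.86 TPM on average in MLL/AF9 lines 2 and 1 and 18.3 and 43.2 TPM in CALM/AF10 lines 2 and 1, was at -1.90 ± 0.45 (edgeR adjusted p = 0.0724; DESeq2 adjusted p = 0.00502). The other 6 members had edgeR adjusted p of 0.229 to 0.999. Neutrophil markers were lower in MLL/AF9 lines for 7 of 8, and their part in the Oas3 result was not tested. The lines with the highest level differed by gene, being MLL/AF9 line 2 for Oas2, Oas1g and Oas1b and CALM/AF10 line 1 for Oas3, Oasl1 and Oasl2.

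The line files also divide each gene's reads among its transcripts. For Oas3 the coding transcript Oas3-201 took 65.8% to 84.0% of the gene's TPM in MLL/AF9 line 2, 74.2% to 94.7% in MLL/AF9 line 1, 80.6% to 89.5% in CALM/AF10 line 2 and 82.9% to 92.1% in CALM/AF10 line 1. Retained-intron transcripts took 5.35% to 34.2%, and another coding transcript, Oas3-202, took at most 3.18%, in CALM/AF10 line 2. For Oas2 coding transcripts took 93.4% to 100% in all samples. For Oasl2, transcripts annotated as targets of nonsense-mediated decay took 23.0% to 52.7% and coding ones 12.9% to 53.4%, and retained-intron transcripts took 15.8% to 59.0%. For Oas1g, transcripts annotated as targets of nonsense-mediated decay took 32.5% to 100% and the coding one at most 23.5%. Nearly all of the Oas1b level in CALM/AF10 line 1 lay on the polymorphic pseudogene transcript. In MLL/AF9 line 2 a transcript annotated as coding, Oas1b-201, took 0% of its TPM in the lowest sample and 87.5% in the highest. These splits are estimates for transcripts that share most of their sequence.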

How the data were processed

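RNA-seq of 30 mouse samples in 10 groups of 3 was analysed. The labels' protocols name total RNA, RNeasy columns and a NuGEN Ovation kit. STAR and mm10 come from the submitters' processing notes, and the quantifier is not given in the sources used here. TPM per gene, deposited for the time course, had the group but no replicate number in its columns, so samples are called a, b and c in column order. TPM and estimated counts per transcript were deposited for the lines. The authors' junction tables, deposited with percent spliced in, a log2 ratio and a q-value per junction, were only read.

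Genes with TPM of 1 or more in at least 3 samples were tested with limma 3.58.1 (R 4.3.3, mean-variance trend) on log2(TPM + 1), the 3 times of a cell type in 1 fit. The difference of changes was fitted on shared symbols. Line transcripts (98206 of 99567 matched in GENCODE M21) were summed per gene, rounded and tested with edgeR 4.0.16 (TMM, quasi-likelihood), and summed per line for the fusions. P-values were adjusted by Benjamini-Hochberg over all genes, threshold 0.05. DESeq2 1.42.0 was an alternative. The tests were tried on simulated data. The members and gene lists were chosen with earlier results of these data known. Named were all members and the 2-5A list, up to 4 called genes of each other list and comparison with the largest changes, and the 8 most alike genes. Not all of these are printed, and some genes of the lists are not reported here.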

Additional observations from a re-analysis of the deposited data

Results flagged for a closer look

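The change after RG3039 differed between CALM/AF10 cells and GMP in 10 tests of the difference itself, given as the CALM/AF10 change less the GMP change in log2(TPM + 1), and the 2 times share the 0 h samples. At 6 h it was -1.24 ± 0.17 for Oas1a and -1.31 ± 0.31 for Oas1g, the pair that shares sequence. It was -1.31 ± 0.20 for Oas2, -1.54 ± 0.19 for Oas3, -2.31 ± 0.28 for Oasl1 and -2.18 ± 0.28 for Oasl2. At 10 h it was -0.66 ± 0.17 for Oas1a, -1.196 ± 0.31 for Oas1g, 1.02 ± 0.28 for Oasl1 and 1.13 ± 0.28 for Oasl2. Limma adjusted p ran from 9.01e-06 for Oasl1 at 6 h to 0.00884 for Oasl1 at 10 h, over all 14044 genes. Groups of 3 are too small for a test of single far samples.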

How the results depend on the processing

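Of 88 single-gene values, 46 passed the threshold and 35 of these did so under every alternative. In CALM/AF10 cells at 6 h against 0 h the count of members was 0 without the filter on low values and 0 to 1 without 1 sample. At 10 h against 6 h it was 2 after median centring, 2 after quantile normalization, 2 in a fit without the 0 h samples, 1 without the filter and 1 to 5 without 1 sample. For MLL/AF9 line 2 against line 1 it was 3 to 5 without 1 sample. Between the fusions it was 2 in DESeq2, 2 without the filter, 3 with all 12 samples as replicates and 0 in limma on TPM. The causes were not tested.

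Same-numbered line samples deviated together with correlations of 0.000969 to 0.0844, and 4 of 6 correlated best with their own number. Values this weak do not settle whether the numbers pair samples. With the replicate number as a block, 6 members passed for the CALM/AF10 lines and 4 for the MLL/AF9 lines. The time-course columns carry no number, so no paired analysis was possible there.

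Log2 values that changed sign were mostly near 0. Without 1 sample, CALM/AF10 6 h against 0 h ran from -0.15 to 0.189 for Oas1b, -0.036 to 0.175 for Oas1c, -0.024 to 0.12 for Oas3 and -0.11 to 0.17 for Oasl2. CALM/AF10 10 h against 6 h ran from -0.00035 to 0.34 for Oas1b and -0.020 to 0.14 for Oas1c. GMP 10 h against 0 h ran from -0.054 to 0.24 for Oas1c, -0.0081 to 0.097 for Oasl1 and -0.18 to 0.25 for Oasl2. GMP 10 h against 6 h ran from -0.23 to 0.0026 for Oas1b and -0.35 to 0.030 for Oas1c. The CALM/AF10 change less the GMP change ran from -0.32 to 0.20 at 6 h for Oas1c. At 10 h it ran from -0.12 to 0.17 for Oas1b, which was -0.0092 with a pseudocount of 0.1 and -0.028 after quantile normalization. It ran from -0.088 to 0.35 for Oas1c, which was -0.020 after quantile normalization. It ran from -0.13 to 0.15 for Oas2, which was -0.019 after median centring, -0.40 with a pseudocount of 0.1 and -0.11 after quantile normalization.

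In limma on TPM, line 2 against line 1 was 0.85 for Oas1c in CALM/AF10, past the threshold with the opposite sign to edgeR (limma adjusted p = 0.0436), and 0.18 for Oas1a, 0.11 for Oas1c and 0.30 for Oas3 in MLL/AF9. Only Oas1a among these had passed in edgeR. Without 1 sample, Oas1c ran from -0.21 to 0.069 in MLL/AF9 and, without the same replicate number in every line, from -0.058 to 0.15 between the fusions.

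Depth is unknown for the time course, where GMP members under 1 TPM rest on few reads.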
